A study of Mus musculus with 12 samples.

Results

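The transcripts described here encode the MCM2–7 complex, the helicase that unwinds DNA at replication forks. They are the 6 genes Mcm2, Mcm3, Mcm4, Mcm5, Mcm6 and Mcm7, taken by symbol from the 57010 Ensembl genes of the count table. All 6 had enough counts to be among the 15943 genes tested. Large peritoneal macrophages, which reside in the peritoneal cavity of the mouse, had been sorted as F4/80high MHCIIlow cells from female mice. WT naive and Tim4KO naive cells came from uninjected mice. WT ID8 and Tim4KO ID8 cells came from mice injected intraperitoneally at 8 weeks of age with ID8ZGO, an ID8 ovarian tumour line that carries ZsGreen and OVA, and collected 24 h later. Tim4KO mice lack Tim4, a scavenger receptor for phosphatidylserine on dying cells that is encoded by Timd4. Each of the 4 groups held 3 libraries, numbered 1 to 3. Only ZsGreen+ macrophages were kept from injected mice, so challenge and uptake cannot be told apart in any comparison of ID8 with naive cells. Nothing in the labels says that the libraries of a group came from separate mice, and p-values then measure only the spread between these samples. The study asked which transcriptional changes follow phagocytosis with and without Tim4.

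MCM2–7 is a ring of related ATPases. In G1 the origin recognition complex, Cdc6 and Cdt1 load it in inactive double rings onto DNA, which licenses origins. In S phase, kinases recruit Cdc45 and the GINS complex, and the assembled CMG helicase opens the fork. MCM genes are classical targets of E2F transcription factors. Resident peritoneal macrophages are known to maintain themselves by local division and to rest in G0 or G1 most of the time. MCM transcripts are made ahead of and during S phase, and their level does not by itself measure DNA synthesis.

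The 6 genes were chosen by measured values of these data, namely the high level of cell cycle transcripts in the library WT ID8 3 in earlier results. Comparisons that contain that library are therefore given as descriptions: where a count of calls from such a fit is printed, nothing is read from it. Tests are given for the Tim4KO challenge and the naive genotype comparison. The WT challenge is also given with only WT ID8 1 and 2. WT ID8 3 was left out of that fit for its measured values, so its p-values are descriptions too. The same holds for the p-values of any other comparison fitted without WT ID8 3.

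Library totals lay between 7358559 and 23170244 counts, with WT ID8 3 the deepest, and 1230 to 30496 counts per library fell in the 6 genes. Levels are CPM, counts scaled to a common library total, with factors from TMM, the trimmed mean of M values. As the genotype labels state, Timd4 was high in WT libraries (1173 to 1483 CPM naive, 879 to 1446 CPM after ID8) and low in Tim4KO libraries (7.18 to 7.68 CPM naive, 1.38 to 1.91 CPM after ID8). Macrophage markers were present in every library, Adgre1 (F4/80) at 2558 CPM or more and Gata6 at 120 CPM or more. WT ID8 3 stood apart from the other 5 ID8 libraries in 2 respects. Its 18 mitosis transcripts summed to 2477 CPM against 95.4 to 171 CPM. Its reads in olfactory and vomeronasal receptor genes, used as a measure of background, summed to 6.82 CPM against 42.3 to 361 CPM in the other ID8 and 267 to 835 CPM in the naive libraries.

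Start-site sequence was examined because E2F factors are known regulators of this family. RefSeq windows of GRCm38.p6, from 250 bases before to 50 after a start, were found for 5 of the 6 genes, and Mcm4 had none. They were searched on both strands for TTTCCCGC, TTTCGCGC, TTTGCCGC and TTTGGCGC, core forms of the E2F motif. A match was present in 4 of the 5 genes (Mcm3, Mcm5, Mcm6 and Mcm7), against 704 of 27025 genes with a window (2.6%) and 744 of 32851 windows (2.26%). The letters were not found in the Mcm2 window. Of Mcm7's pair of windows, 1 held a match. The stretches below carry the matches in capitals, 5′ to 3′ on the gene's strand.
Mcm3, chr1:20820266-20820295 (−): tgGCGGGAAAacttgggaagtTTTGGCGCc
Mcm5, chr8:75109347-75109376 (+): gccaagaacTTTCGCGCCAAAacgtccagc
Mcm6, chr1:128359795-128359824 (−): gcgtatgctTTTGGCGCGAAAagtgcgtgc
Mcm6, chr1:128359734-128359763 (−): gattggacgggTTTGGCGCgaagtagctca
Mcm7, chr5:138172030-138172059 (−): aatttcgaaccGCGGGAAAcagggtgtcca
Mcm7, chr5:138171849-138171878 (−): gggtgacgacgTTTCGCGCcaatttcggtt
In Mcm5 and the upstream Mcm6 stretch, matches on both strands overlap and form a single run of capitals. Mcm6, with 3 matches the most of the 5, is shown with its whole upstream stretch, chr1:128359706-128359955 (−).
Mcm6 upstream: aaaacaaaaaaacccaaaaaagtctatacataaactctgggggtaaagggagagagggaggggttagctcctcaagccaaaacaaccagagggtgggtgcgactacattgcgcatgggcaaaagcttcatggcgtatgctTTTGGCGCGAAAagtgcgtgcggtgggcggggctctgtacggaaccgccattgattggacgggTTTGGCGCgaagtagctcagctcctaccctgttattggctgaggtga
The same letters were found in 5 of 9 helicase-loading genes with a window, 8 of 23 polymerase and fork genes, 7 of 20 G1/S control genes, 2 of 9 helicase-activation genes, 1 of 16 mitosis genes and 0 of 7 nucleotide-supply genes. A match is a description of these letters, not evidence that a factor binds.

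In cells that had taken up tumour material, every MCM transcript was several times its naive level, in both genotypes. The level in each library is given gene by gene, starting with the subunits that form the closing gate of the ring, Mcm2 and Mcm5.

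Mcm2 (ENSMUSG00000002870) encodes the gate subunit that also binds histones. It was at 20.8, 21.8 and 18.6 CPM in WT naive 1 to 3 and at 16.9, 10.6 and 18.3 CPM in Tim4KO naive 1 to 3. It reached 74.3, 78.0 and 139.7 CPM after challenge of WT (1 to 3) and 86.1, 116.3 and 74.5 CPM after challenge of Tim4KO (1 to 3). The lowest ID8 library was 3.40 times the highest naive library, the widest gap of the 6 genes.

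Mcm5 (ENSMUSG00000005410) encodes the other side of the gate. Its naive levels were 22.1, 22.8 and 26.2 CPM in WT and 17.6, 13.1 and 19.1 CPM in Tim4KO. After challenge they were 75.5, 68.6 and 215.6 CPM in WT and 90.6, 124.3 and 87.6 CPM in Tim4KO. WT ID8 3 was far above its group, while all 3 Tim4KO ID8 libraries lay above WT ID8 1 and 2.

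Mcm3 (ENSMUSG00000041859) encodes a subunit that loading factors contact. It was at 48.1, 44.4 and 46.7 CPM in WT naive and 35.8, 37.3 and 45.5 CPM in Tim4KO naive libraries. It was at 140.6, 147.4 and 250.04 CPM in WT ID8 and 132.3, 181.2 and 119.2 CPM in Tim4KO ID8 libraries. Here WT ID8 1 and 2 fell inside the Tim4KO ID8 range.

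Mcm4, Mcm6 and Mcm7 form the part of the ring with helicase activity in isolation. Mcm4 (ENSMUSG00000022673) had the tightest naive values, 40.8, 40.2 and 39.6 CPM in WT and 31.9, 31.2 and 32.8 CPM in Tim4KO. Its ID8 values were 99.3, 100.3 and 202.1 CPM in WT and 108.6, 145.7 and 102.7 CPM in Tim4KO. As for Mcm5, the 3 Tim4KO ID8 libraries were above WT ID8 1 and 2.

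Mcm6 (ENSMUSG00000026355) gave the most reads. It was at 77.1, 70.8 and 70.3 CPM in WT naive and 68.3, 52.1 and 61.6 CPM in Tim4KO naive libraries. After challenge it was at 183.5, 197.8 and 385.8 CPM in WT and 224.4, 297.8 and 197.0 CPM in Tim4KO. WT ID8 3 was again the highest library and Tim4KO ID8 2 the next.

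Mcm7 (ENSMUSG00000029730) was at 20.7, 23.0 and 28.2 CPM in WT naive and 19.4, 18.8 and 23.7 CPM in Tim4KO naive libraries. It was at 65.4, 60.0 and 192.6 CPM in WT ID8 and 70.1, 105.1 and 65.2 CPM in Tim4KO ID8 libraries. Its gap between conditions was the narrowest, with the lowest ID8 library 2.13 times the highest naive library. Exons of Mcm7 overlap those of Ap4m1 by 321 bases and of Cops6 by 64 bases on the opposite strand in GENCODE vM21. Whether the counting used strand is not given in the sources used here, so part of the Mcm7 count may belong to those genes. The microRNA genes inside Mcm7, Mir25, Mir93 and Mir106b, had 0 counts in every library of this polyadenylated RNA assay, which does not capture small RNAs. Mir25 and Mir93 also overlap Mcm7 exons on the same strand, by 84 and 88 bases. How the counting treated such reads is not given, and the reason for the 0 counts was not tested.

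**Figure D1:**
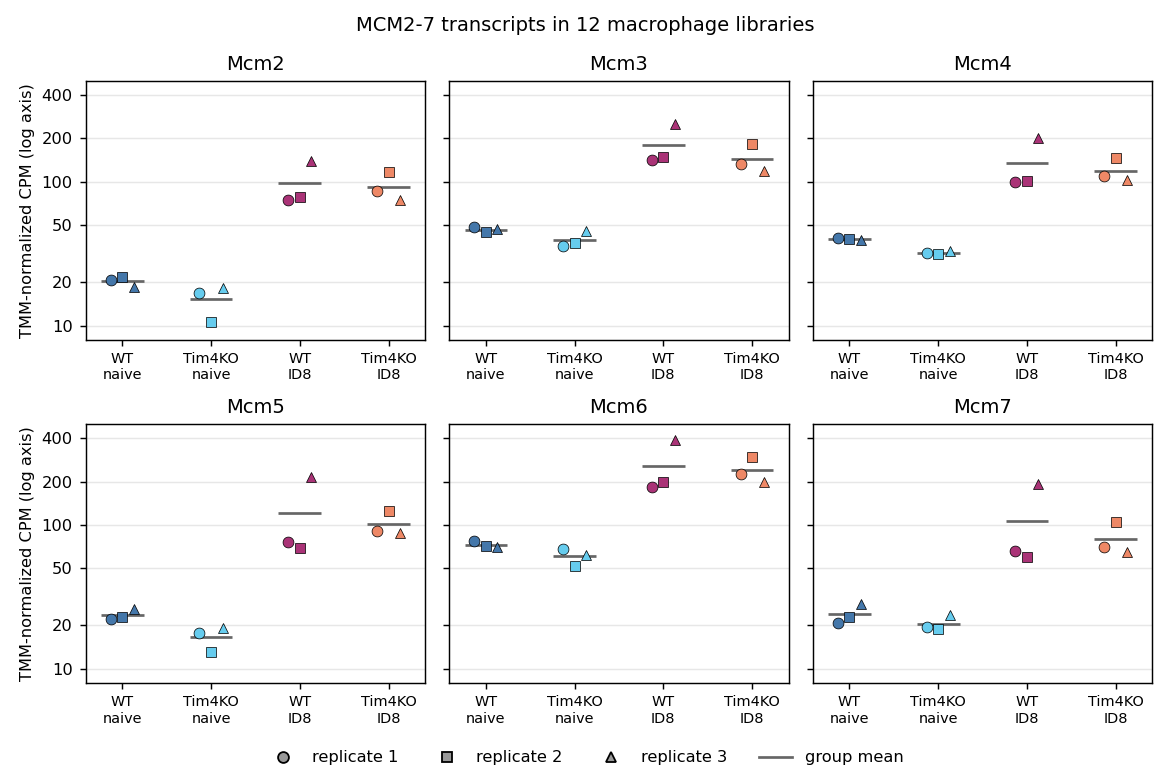
TMM-normalized CPM (log axis) of each MCM gene in the 12 libraries, by group; marker shape gives the replicate and the line the group mean. In every panel all 6 ID8 libraries lie above all 6 naive ones, and the WT ID8 replicate 3 triangle is the highest point.

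For all 6 genes the 6 ID8 libraries lay above the 6 naive libraries, a pattern found in 13.8% of all tested genes. In bulk RNA a higher share of cells with the transcripts and more transcript per cell cannot be told apart.

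The challenge of Tim4KO cells contains no WT library and was tested with 3 libraries against 3 in edgeR's quasi-likelihood model of all 12 libraries. All 6 genes rose at a Benjamini-Hochberg adjusted p under 0.05, where 11.5% of tested genes were called higher. Their median log2 difference was 1.96, against -0.05 over all tested genes. Mcm5 went from 16.6 ± 3.10 to 100.8 ± 20.4 CPM (mean ± SD, n = 3 each), a log2 difference of 2.59 (SE 0.41, edgeR adjusted p = 0.00259). Mcm2 rose by 2.57 on the log2 scale (SE 0.27, edgeR adjusted p = 6.64e-05). These were ranks 48 and 49 from the top of 15943 genes. Mcm6 rose by 1.98 (SE 0.25), Mcm4 by 1.89 (SE 0.24) and Mcm3 by 1.86 (SE 0.22), with edgeR adjusted p-values of 0.000255, 0.000186 and 8.56e-05. Mcm7 rose by 1.95 with the largest error (SE 0.43, edgeR adjusted p = 0.0132). The Mcm7 call was lost without Tim4KO ID8 2 (adjusted p = 0.0550), without Tim4KO naive 2 (0.0637) and with no filter on low counts (0.0689), while the other 5 genes were called in each of the 19 alternative settings.

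In WT cells the comparison used WT ID8 1 and 2 against 3 naive libraries. WT ID8 3 was left out for its measured values, which also lowered the SE of Mcm5 from 0.41 to 0.17. The p-values of this fit are therefore descriptions. All 6 genes rose again, beside 20.7% of tested genes called higher. Mcm2 rose by 1.90 on the log2 scale (SE 0.19, edgeR adjusted p = 3.28e-07) and Mcm3 by 1.64 (SE 0.16, edgeR adjusted p = 1.62e-07). Mcm5 followed at 1.60, Mcm6 at 1.39, Mcm7 at 1.38 and Mcm4 at 1.31, with SEs of 0.15 to 0.18 and edgeR adjusted p-values of 2.65e-07 to 5.84e-06. The median was 1.50, against -0.05 over all genes. With WT ID8 3 included, the log2 differences were 2.34 for Mcm5, 2.26 for Mcm2, 2.15 for Mcm7, 1.95 for Mcm3, 1.82 for Mcm6 and 1.74 for Mcm4. That single library thus raised the median to 2.05. The fit with it called 6 of 6 genes and 19.5% of tested genes higher, and nothing is read from that count, since the library was part of the choice. Mcm7 moved the most, from 1.38 to 2.15, and with all 12 libraries and the background reads as a covariate it was at 1.31 and not called.

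**Figure D2:**
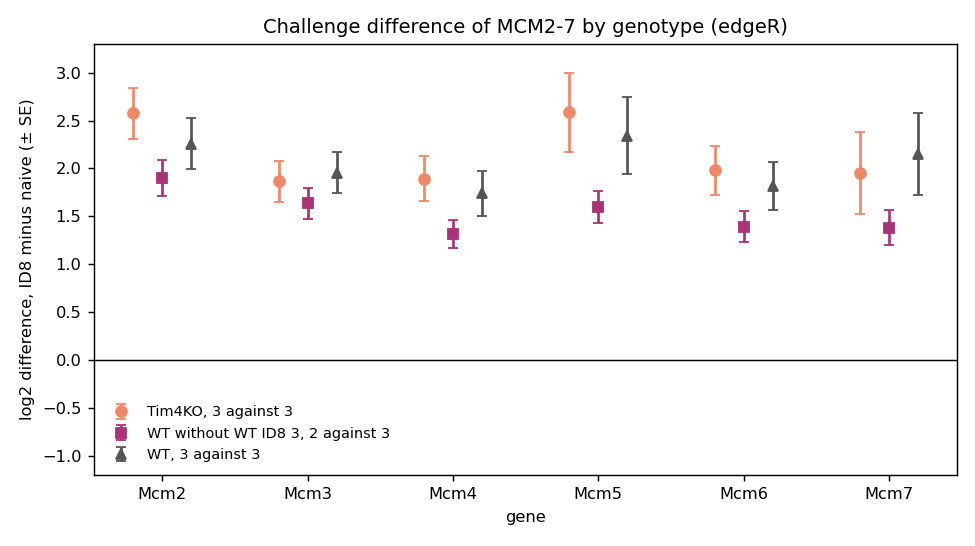
Log2 difference between ID8 and naive libraries with its standard error (edgeR) for each MCM gene. Circles are Tim4KO, squares WT without WT ID8 3 and triangles WT with all 3 libraries; all values are above 0, from 1.31 to 2.59.

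Other cells in the sort were examined beside this rise. The 12 epithelial or tumour markers summed to 5.99 to 27.1 CPM in naive and 1.59 to 5.70 CPM in ID8 libraries. Several were near the floor: Cldn3, Cldn4 and Krt8 were at 3 counts or fewer in 11, 10 and 9 of 12 libraries. The highest sum was that of WT naive 1, which also had the most background reads (835 CPM). The lowest sum was that of WT ID8 3, in which Epcam, Krt8, Krt19 and Msln had 0 counts and background reads were fewest (6.82 CPM). The 5 neutrophil markers moved with challenge, from 6.12 to 8.82 CPM in naive to 9.68 to 27.2 CPM in ID8 libraries, mainly through S100a8, while Ly6g was at 3 counts or fewer in 11 of 12 libraries. The part of the cells behind the epithelial or tumour and the neutrophil markers in the result was not tested. Macrophage markers did not move together. Lyz2, the macrophage lysozyme gene, was at 40360 to 47291 CPM in naive and 10685 to 14928 CPM in ID8 libraries. Mertk was also lower in ID8 libraries. Adgre1, Icam2, Itgam and Rarb were higher in every ID8 library than in any naive one. Adgre1 was at 2558 to 3774 CPM in naive and 3916 to 6273 CPM in ID8 libraries. Gata6, Csf1r, Prg4, Selp and Cd14 overlapped between the conditions.

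The library WT ID8 3 held more of each MCM transcript than any other library. It was above the other 5 ID8 libraries for all 6 genes, as for 18.8% of tested genes; since this library's level was part of the choice, nothing is read from that count. Against the mean of WT ID8 1 and 2 it had 3.07 times the Mcm7, 2.99 times the Mcm5, 2.03 times the Mcm4, 2.02 times the Mcm6, 1.83 times the Mcm2 and 1.74 times the Mcm3. Mcm5 and Mcm7 thus took a larger part of the 6 genes' summed CPM there, 15.6% and 13.9%, against 10.5% to 13.6% and 9.20% to 10.8% in the other ID8 libraries.

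The mitosis list, which holds kinases, cyclins and kinetochore genes that act after replication, differed far more between these libraries. Its 18 genes were 13.6 to 78.5 times higher in WT ID8 3 than in WT ID8 1 and 2, with a median of 23.9, against a median of 2.02 for the 6 MCM genes and 0.88 for all tested genes. Plk1, a mitotic kinase, was at 67.3 CPM there and at 0.344 and 1.37 CPM in WT ID8 1 and 2. Ccnb2, a mitotic cyclin, was at 104.7 CPM there and at 1.15 and 2.57 CPM. The summed MCM level was 639, 652 and 1386 CPM in WT ID8 1 to 3, and the challenged Tim4KO libraries had 712, 970 and 646 CPM.

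In naive libraries the MCM sum was 223 to 230 CPM in WT and 163 to 201 CPM in Tim4KO. The mitosis sum was 144, 197 and 354 CPM in WT naive and 128, 273 and 380 CPM in Tim4KO naive libraries, so it varied severalfold while the MCM sum stayed in a narrow range. The ratio of MCM to mitosis sums was 0.529 to 1.59 in naive libraries, 4.59 to 6.70 in 5 ID8 libraries and 0.559 in WT ID8 3. Among those 5, the libraries with the higher MCM sum also had the higher mitosis sum within each genotype: 95.4 and 101 CPM of mitosis transcripts in WT ID8 1 and 2, and 141, 145 and 171 CPM in Tim4KO ID8 3, 1 and 2. Their MCM sums were all above the naive range, while their mitosis sums lay in or below the lower part of it, and WT ID8 3 had both sums high. The difference between the lists was not tested.

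**Figure D3:**
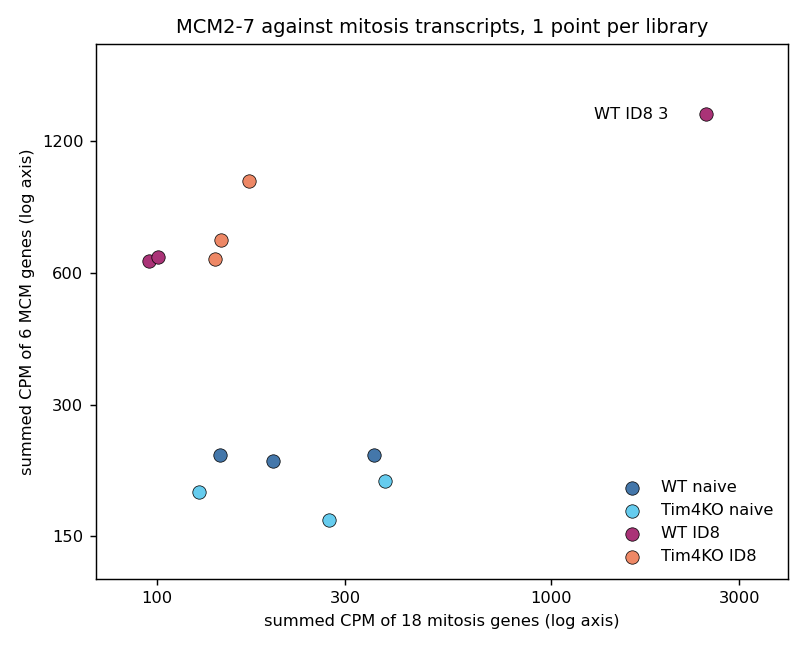
Summed CPM of the 6 MCM genes against that of the 18 mitosis genes, both on log axes, with 1 point per library coloured by group. The 6 naive libraries lie at MCM sums of 163 to 230 CPM, 5 ID8 libraries at 639 to 970 CPM with mitosis sums under 172 CPM, and WT ID8 3 at 1386 and 2477 CPM.

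The genotype differences of these transcripts were smaller in size than their challenge differences. In naive cells all 6 were lower in Tim4KO, with log2 differences of -0.50 for Mcm5 (SE 0.41), -0.40 for Mcm2 (SE 0.27), -0.33 for Mcm4 (SE 0.23), -0.26 for Mcm6 (SE 0.25), -0.23 for Mcm3 (SE 0.21) and -0.21 for Mcm7 (SE 0.43). None passed the test (edgeR adjusted p from 0.844 to 0.971), and 0 of 6 had an unadjusted p under 0.05 or were called by DESeq2, in a comparison where 7 genes or 0.0439% of those tested were called. At an unadjusted p under 0.05 edgeR had 999 of the 15943 tested genes here. WT ID8 3 is in neither naive group but enters the shared variance. When it was left out, Mcm2, Mcm4 and Mcm5 had an unadjusted edgeR p under 0.05, beside 1513 of the 15943 tested genes. These 3 were lower in Tim4KO. DESeq2 without that library also gave 3 MCM genes at that level, all lower, and 0 of 6 were called by either tool. Leaving out WT ID8 3, singled out by its cell cycle transcripts, lowered the SE of Mcm5 from 0.41 to 0.16. Its log2 difference was -0.50 in both fits. The unadjusted p-values without that library are therefore descriptions. The libraries of Mcm2, Mcm4, Mcm5 and Mcm6 did not overlap between the naive genotypes, a pattern that 6.84% of tested genes showed with Tim4KO lower. The differences stayed negative for all 6 in each alternative setting.

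In challenged cells the direction depended on the setting, and it changed for 5 of the 6 genes when WT ID8 3 was left out. With it, all 6 genes were lower in Tim4KO ID8 than in WT ID8, by log2 differences from -0.41 for Mcm7 to -0.08 for Mcm2, and 0 of 6 were called or had an unadjusted p under 0.05 in edgeR or DESeq2 (0.0565% of tested genes were called), a count from which nothing is read. Without it, 5 of the 6 were higher in Tim4KO ID8, with Mcm5 at 0.48, Mcm7 at 0.35, Mcm6 at 0.33, Mcm2 at 0.27 and Mcm4 at 0.25, and Mcm3 was at -0.00. Of the 6, 0 were called then by edgeR (edgeR adjusted p from 0.0855 to 0.996) or DESeq2, beside 6.76% of tested genes in edgeR. In that fit 1 of the 6 had an unadjusted edgeR p under 0.05, beside 3276 of the 15943 tested genes. Only Mcm4 and Mcm5 had all 3 Tim4KO ID8 libraries above WT ID8 1 and 2, as did 18.4% of tested genes. With all 12 libraries and background reads as a covariate, Mcm2, Mcm4, Mcm5, Mcm6 and Mcm7 were also higher in Tim4KO ID8. So were Mcm2 and Mcm6 when Tim4KO ID8 3 alone was left out. WT ID8 3 was singled out by its cell cycle transcripts, so values without it are descriptive and are not independent evidence.

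The interaction, the Tim4KO challenge difference minus the WT one, also moved with that library. With all libraries it ran from -0.20 for Mcm7 to 0.32 for Mcm2, and 0 of the 6 genes were called, among 0 of 15943 tested (0%). At an unadjusted p under 0.05 edgeR had 1186 genes, 0 of them MCM genes, and DESeq2 called 11, again with 0 MCM genes. Without WT ID8 3 it was positive for all 6 genes, at 0.98 for Mcm5 (SE 0.23), 0.66 for Mcm2, 0.58 for Mcm4 and Mcm6, 0.56 for Mcm7 and 0.22 for Mcm3. Mcm5 alone was called, beside 0.922% of tested genes called higher. At an unadjusted p under 0.05 edgeR had 5 of the 6 genes, beside 2578 of the 15943 tested genes, and DESeq2 also had 5. The call and these counts rest on leaving out WT ID8 3, which had the highest level of all 6 genes in its group. The WT rise is therefore smaller by construction, and the values are descriptions.

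Levels of different subunits were compared per kilobase of the principal transcript (2910 to 3589 bases). In WT naive cells Mcm6 had the highest level, 25.0 ± 1.30 CPM per kb, followed by Mcm3 at 15.3 ± 0.625, Mcm4 at 11.2 ± 0.166, Mcm7 at 8.09 ± 1.29, Mcm5 at 7.01 ± 0.651 and Mcm2 at 6.06 ± 0.481 (mean ± SD, n = 3). Mcm6, Mcm3 and Mcm4 were each apart from the next by more than the sum of their SDs, while Mcm7 with Mcm5, and Mcm5 with Mcm2, lay within the sum of their SDs. In Tim4KO ID8 cells the order was Mcm6 (82.4 ± 17.9), Mcm3 (47.6 ± 10.8), Mcm4 (33.2 ± 6.49), Mcm5 (29.8 ± 6.02), Mcm2 (27.4 ± 6.41) and Mcm7 (27.1 ± 7.35), and only Mcm6 was apart from its neighbour by more than the sum of their SDs. Mcm2 and Mcm5 had the lowest levels per kb in Tim4KO naive cells (4.53 ± 1.21 and 4.91 ± 0.917) and the largest log2 rise there. Lengths over all annotated exons instead gave the same top 3 in WT naive cells (15.6, 12.4 and 11.2 CPM per kb) with Mcm2 again the lowest at 2.94. Mcm5 (5.94) was then above Mcm7 (5.41). In Tim4KO ID8 cells these lengths also kept Mcm6, Mcm3 and Mcm4 on top (51.4, 38.4 and 33.2 CPM per kb). There Mcm2 (13.3) fell below Mcm7 (18.1), so the lower part of the order depends on the length used. The protein subunits are present in equal number in the complex, and transcript levels are not protein amounts.

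**Figure D4:**
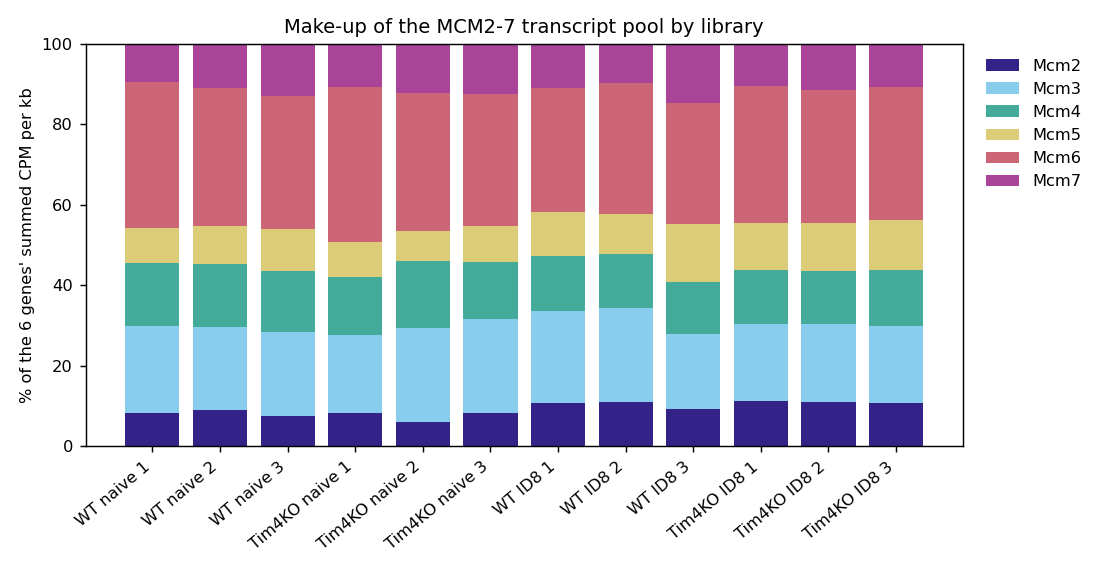
Share of each MCM gene in the 6 genes' summed CPM per kb of principal transcript, in percent, for each of the 12 libraries. Mcm6 is the largest segment in every library, the Mcm2 segment is larger in ID8 than in naive libraries, and the Mcm5 and Mcm7 segments are the largest of their kind in WT ID8 3.

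Across libraries the 6 profiles were alike. Pearson's r between log2 CPM of gene pairs was 0.963 to 0.996 over 12 libraries and 0.978 to 0.995 over the 11 without WT ID8 3, in which naive and ID8 libraries form separate groups. Within the 6 naive libraries it was 0.353 to 0.899. Of 10111 candidate genes outside the lists, the ones most like the mean MCM profile over 12 libraries were Uhrf1 (r = 0.990), Ncf4 (0.987), Nup62 (0.986), Nasp (0.984) and Fignl1 (0.984). Uhrf1, which helps to maintain DNA methylation at replication, was at 6.90 to 16.0 CPM in naive, 39.2 to 73.4 CPM in 5 ID8 libraries and 129 CPM in WT ID8 3. Nasp is a histone chaperone, and Ncf4 encodes a subunit of the phagocyte NADPH oxidase. Over 11 libraries Uhrf1, Ncf4 and Nasp were again among the 5, with Hat1, a histone acetyltransferase, and Hells, a chromatin remodeller. Libraries share condition, depth and background in these correlations, which are descriptions.

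Other replication genes were counted in lists written from general knowledge, in the Tim4KO challenge, where 11.5% of tested genes were called higher and 5.06% lower. The same comparison was also fitted without WT ID8 3, whose spread enters the shared variance, and 15% of tested genes were then called higher and 8.26% lower. That library was left out for its cell cycle transcripts, so a lower error of such genes follows by construction. Calls and p-values of that fit are therefore descriptions. Counts and medians of the lists are set beside the 6 of 6 MCM genes at a median of 1.96.

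Of 10 helicase-loading genes 3 rose and 0 fell (median 0.53). Orc1 and Orc6, origin recognition subunits, had log2 differences of 1.75 (SE 0.41, edgeR adjusted p = 0.00996) and 0.86 (SE 0.25, edgeR adjusted p = 0.0276). Cdt1, the loader, was at 1.66 (SE 0.37, edgeR adjusted p = 0.0108). The Orc6 call was lost when any of 4 libraries was left out (Tim4KO ID8 1 or 2, Tim4KO naive 2 or 3) and with upper-quartile scaling, with adjusted p of 0.0547 to 0.117. Cdt1 missed the threshold without Tim4KO naive 2 (adjusted p = 0.0509). Cdc6, the partner of Cdt1, was at 2.07 and Gmnn, the Cdt1 inhibitor geminin, at 1.21, and neither was called (edgeR adjusted p = 0.0580 and 0.131). Without WT ID8 3 both were called and the count was 5 of 10, beside the 15% of tested genes called higher in that fit.

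Of 13 genes of helicase activation and the CMG complex 6 rose and 0 fell (median 1.06). Cdc45, the CMG partner of the ring, was at 2.10 (SE 0.52, edgeR adjusted p = 0.0178), but it lost its call without Tim4KO ID8 2 or any single Tim4KO naive library (adjusted p from 0.0509 to 0.0755). Gins1, a GINS subunit, was at 1.84 (SE 0.35, edgeR adjusted p = 0.00318), Wdhd1 at 1.59 (SE 0.31, edgeR adjusted p = 0.00382) and Topbp1 at 1.06 (SE 0.22, edgeR adjusted p = 0.00528). Mcm10, an activation factor and no subunit of the ring, was at 1.70 and not called (edgeR adjusted p = 0.149), nor was Ticrr at 0.90 (0.498). Mcm10 was called without WT ID8 3, where the count was 9 of 13 beside 15% of tested genes.

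Of 27 polymerase and fork genes 14 rose and 0 fell (median 0.93). Timeless, of the fork protection complex, went from 4.34 ± 1.68 to 24.0 ± 5.80 CPM (n = 3 each; log2 difference 2.42, SE 0.29, edgeR adjusted p = 0.000121), close in size to Mcm2. Pola2 and Pole2, subunits of polymerases alpha and epsilon, rose by 0.93 (SE 0.13) and 1.45 (SE 0.23), with edgeR adjusted p-values of 0.000261 and 0.000888. Lig1, Pole and Clspn were at 1.84, 1.33 and 0.71 and were not called (edgeR adjusted p = 0.103, 0.209 and 0.645). The fit without WT ID8 3 called 22 of 27, beside 15% of tested genes.

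Of 8 nucleotide-supply genes 2 rose and 0 fell (median 0.97). Dtymk, a thymidylate kinase, rose by 0.86 (SE 0.15, edgeR adjusted p = 0.00153). Rrm2, the regulated ribonucleotide reductase subunit, and Tk1, a thymidine kinase, were at 0.20 and -0.09 and were not called (edgeR adjusted p = 0.926 and 0.967). Both were among the genes that set WT ID8 3 apart, at 25.9 and 18.8 times the mean of WT ID8 1 and 2. Dut and Tyms were at 1.19 and 1.13 (edgeR adjusted p = 0.134 and 0.232). Both were called without WT ID8 3, where the count was 5 of 8 beside 15% of tested genes.

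Of 27 G1/S control genes 9 rose and 0 fell (median 0.40). Cdk4 and Cdk6, the G1 kinases that act on Rb proteins, rose by 0.903 (SE 0.11) and 0.996 (SE 0.13), both with an edgeR adjusted p of 0.000133. E2f1, an activator of replication genes, rose by 1.48 (SE 0.31, edgeR adjusted p = 0.00661). E2f7 and E2f8, atypical repressors that peak late in S phase, were at -0.53 and 0.23, and Ccna2, the S and G2 cyclin, at -1.41, none of them called (edgeR adjusted p = 0.784, 0.910 and 0.556). Without WT ID8 3 the count was 13 higher and 3 lower, beside 15% and 8.26% of tested genes, the 3 lower being Ccna2, Cdkn1b and Cdkn2c.

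Of 3 further members of the MCM family, Mcm8, which works with Mcm9 in recombination repair, rose by 1.72 (SE 0.41, edgeR adjusted p = 0.0117). Its level was 1.72, 2.25 and 2.30 CPM in Tim4KO naive and 6.28, 8.64 and 5.85 CPM in Tim4KO ID8 libraries, and the call was lost without Tim4KO ID8 2 (adjusted p = 0.0518). Mcm9 and Mcmdc2 were at 0.13 and -0.24 and were not called (edgeR adjusted p = 0.606 and 0.813).

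Of 18 mitosis genes 0 rose and 0 fell by edgeR with all 12 libraries (median -0.99), and 0 had an unadjusted p under 0.05. DESeq2 gave p-values for 11 of the 18 and called 0, with 1 at an unadjusted p under 0.05. Without WT ID8 3, 5 were called lower and 0 higher by edgeR (DESeq2 8 and 0), where 15% of tested genes were called higher and 8.26% lower. These were Ccnb1 (-1.75, SE 0.54), Ccnb2 (-2.90, SE 0.63), Plk1 (-1.58, SE 0.42), Cenpf (-2.16, SE 0.56) and Cenpa (-1.22, SE 0.27), with edgeR adjusted p-values of 0.0448, 0.0121, 0.00912, 0.0216 and 0.00511. With all 12 libraries Ccnb2 was at -2.89 (SE 1.56) and Plk1 at -1.58 (SE 1.56). Such calls came with a lower SE at about the same log2 difference, and they are descriptions. Cenpa lies outside the naming rule and was added because the count was small. Birc5 was at -1.10 with all 12 libraries and -1.11 without WT ID8 3 and was not called (edgeR adjusted p = 0.654 and 0.105).

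In the WT challenge with WT ID8 1 and 2, where 20.7% of tested genes were called higher and 11.8% lower, the same lists were counted. Called higher were 8 of 10 loading genes, 8 of 13 activation genes, 17 of 27 fork genes, 6 of 8 nucleotide-supply genes and 13 of 27 G1/S genes. Timeless was at 2.13 (SE 0.25, edgeR adjusted p = 2.83e-06) and Cdk6 at 1.50 (SE 0.14, edgeR adjusted p = 1.05e-07). For mitosis and late S phase genes the direction turned on WT ID8 3, the library singled out by such transcripts, so their values are descriptions. Without it, 7 of 18 mitosis genes (0 higher), 7 of 27 G1/S genes and 1 fork gene, Pold4, were called lower. With it, all 18 mitosis genes were positive (median 2.07, against -1.13 without it), and 16 G1/S genes were called higher and 1 lower. Of those 18, 0 were called and 0 had an unadjusted p under 0.05 in edgeR, and DESeq2 called 0 of the 11 it gave p-values for, with 5 higher at an unadjusted p under 0.05. Ccna2 was at -2.23 without that library and 1.98 with it, E2f7 at -1.72 and 1.21, and E2f8 at -1.75 and 1.32. Plk1 was at -2.17 and 2.51, and Ccnb2 at -2.49 and 1.77. Pold4 was negative either way, at -0.70 and -0.48.

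**Figure D5:**
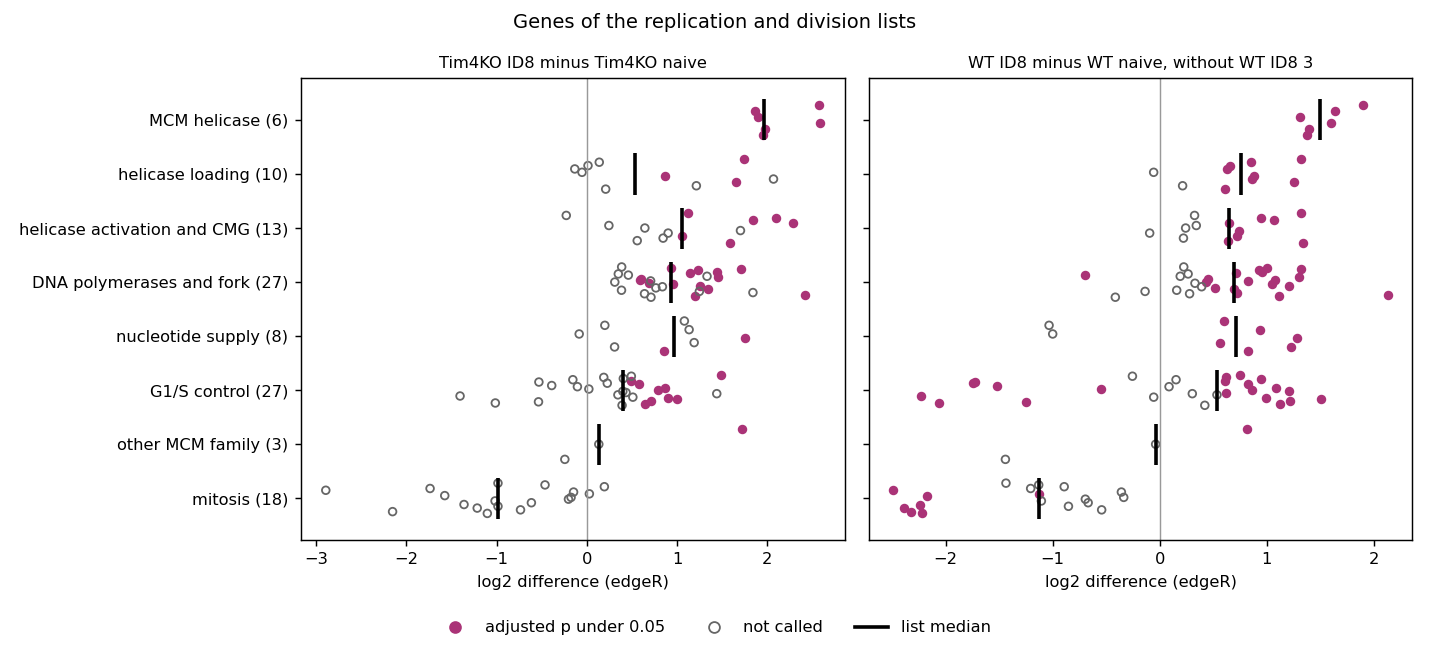
Log2 difference between ID8 and naive libraries (edgeR) of each tested gene, by list with the number of genes, in Tim4KO cells from the fit of all 12 libraries (left) and in WT cells without WT ID8 3 (right). Filled points are called, open points are not, and bars are list medians; the MCM medians are 1.96 and 1.50 and the mitosis medians -0.99 and -1.13 (2.07 in WT with WT ID8 3).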

How the data were processed

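Macrophage RNA (RNeasy micro kit) was made into libraries with the SMART-Seq mRNA LP kit, per the labels' protocols. FastQC, STAR 2.5, mm10 and GRCm39 are named in the submitters' processing notes. The counting program, annotation and handling of strand and multi-mapping reads are not given in the sources used here. The authors deposited whole-number counts per Ensembl gene, under a name that gives them as raw counts. GENCODE vM21 gave symbols for 52029 of 57010 genes, and transcript lengths. Promoter sequence is from RefSeq.

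Counts were analysed with edgeR 4.0.16 in R 4.3.3: filterByExpr, TMM, robust quasi-likelihood fit of 4 group means to 12 libraries (8 residual degrees of freedom), 5 two-sided comparisons, Benjamini-Hochberg adjustment over 15943 genes, called under 0.05. The fit was tested on simulated data. A count of 3 corresponded to 0.136 to 0.398 CPM; reads were not counted by molecular identifier, so this covers counting error only. Alternatives were DESeq2 1.42.0, DESeq2 size factors, upper-quartile scaling, no filter, only the groups compared, replicate number as a block, background reads (1947 olfactory and vomeronasal receptor genes) as a covariate, and each library left out. Same-numbered WT naive and WT ID8 libraries deviated together (correlations of deviations from the group means 0.139 to 0.320, 3 of 3 pairs over 0.1), so the numbers, which come from the sample labels, were taken to pair them. The block was therefore also fitted to the WT libraries alone. In the other comparisons not every pair passed 0.1.

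The 6 genes, the lists and the tests were chosen with earlier results of these data known. Named from each list were up to 3 genes with the smallest p in the Tim4KO challenge and up to 3 that differed most between WT ID8 3 and WT ID8 1 and 2; 1 gene of the nucleotide-supply list is not reported here by name. Named as most like were the 5 genes, outside the lists and averaging 50 normalized counts or more, whose log2(CPM + 0.5) correlated best with the mean standardized profile of the 6. Markers of fibroblast, B, T or NK, mast, small peritoneal macrophage or dendritic and erythroid cells were also summed. In naive, then ID8 libraries, these sums were 4.12 to 14.9 and 0.182 to 6.25 CPM (fibroblast), 5.10 to 12.0 and 1.97 to 5.62 CPM (B), 2.78 to 5.93 and 2.22 to 5.89 CPM (T or NK), 12.2 to 33.9 and 1.49 to 9.03 CPM (mast), 37.8 to 53.3 and 13.5 to 43.0 CPM (small peritoneal macrophage or dendritic), and 0.673 to 9.60 and 0.368 to 3.00 CPM (erythroid).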

Additional observations from a re-analysis of the deposited data

Results flagged for a closer look

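The challenge difference of Mcm5 was larger in Tim4KO than in WT cells once WT ID8 3 was left out, which is what brought it here. The interaction was then 0.98 on the log2 scale (SE 0.23, edgeR adjusted p = 0.0241), from a challenge difference of 2.58 in Tim4KO and 1.60 in WT cells. WT ID8 3 was singled out by its cell cycle transcripts and had 2.99 times the Mcm5 of WT ID8 1 and 2, so leaving it out lowers the WT rise by construction. The value is therefore a description and not independent evidence of a difference between the genotypes. It was 1.10 with upper-quartile scaling, 0.96 with a replicate block and 0.9958 in DESeq2, added after the data were seen, but these share the same 11 libraries. With WT ID8 3 included it was 0.24 and not called.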

How the results depend on the processing

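The 6 MCM calls of the Tim4KO challenge held in 111 of 114 combinations of gene and setting the exceptions all being Mcm7, and those of the WT challenge without WT ID8 3 in 24 of 24. All 6 stayed negative and uncalled in the naive genotype comparison in 114 of 114. Upper-quartile scaling moved the median of all genes to -0.28 in the WT and -0.17 in the Tim4KO challenge and to 0.13 in the interaction. The causes of the changes below were not tested.

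With background reads as a covariate the ID8 genotype difference turned positive for Mcm2 (0.15), Mcm4 (0.12), Mcm5 (0.28), Mcm6 (0.20) and Mcm7 (0.15), the interaction for Mcm3 (0.15) and Mcm7 (0.45), and the Tim4KO challenge turned for Rrm2 (-0.42), E2f8 (-0.37) and Mcmdc2 (0.023). Upper-quartile scaling turned the Mcm3 interaction to 0.0341. In 11 libraries the Mcm3 ID8 genotype difference became 0.081 with that scaling and 0.0008 with a replicate block.

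Leaving out each library in turn, the ID8 genotype difference ran from -0.29 to 0.27 for Mcm2, -0.39 to 0.25 for Mcm4, -0.54 to 0.48 for Mcm5, -0.33 to 0.33 for Mcm6 and -0.71 to 0.35 for Mcm7, positive without WT ID8 3 and, for Mcm2 and Mcm6, also without Tim4KO ID8 3. The interaction ran from -0.29 to 0.22 for Mcm3, -0.0653 to 0.58 for Mcm4, -0.0454 to 0.98 for Mcm5, -0.0693 to 0.58 for Mcm6 and -0.50 to 0.56 for Mcm7, with 0 to 1 of the 6 genes called. The Tim4KO challenge ran from -0.88 to 0.0037 for E2f7, -0.0457 to 0.60 for E2f8, -0.054 to 0.64 for Rrm2, -0.32 to 0.23 for Tk1 and -0.56 to 0.21 for Mcmdc2.

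Genes called in all, with a library left out, numbered 1 to 23 in the naive and 1 to 1077 in the ID8 genotype comparison, 3356 to 6634 in the WT challenge, 1287 to 3715 in the Tim4KO challenge and 0 to 399 in the interaction, the highest of each without WT ID8 3 except in the WT challenge. DESeq2 called 52, 266 and 11 genes in the naive genotype, ID8 genotype and interaction comparisons, and no filter gave 59, 264 and 73. Background as a covariate gave 188 in the ID8 genotype comparison and 2 in the interaction. Only the groups compared gave 2 in the naive genotype comparison and 3181 in the WT challenge. The mean summed MCM level of WT naive, 227 CPM, was 233 CPM with DESeq2 size factors and 247 CPM with upper-quartile scaling.

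Over all groups 6 of 18 same-numbered pairs had a correlation of deviations over 0.1 (range -0.384 to 0.320), and 5 of 12 libraries correlated best with their own number. The numbers were taken to pair the samples for the WT challenge (3 of 3 pairs over 0.1) and for no other comparison. That pairing is an assumption, since libraries with different numbers reached 0.390 (WT naive 2 with Tim4KO ID8 1). With the replicate block on the WT libraries alone, a fit added after the data were seen, all 6 MCM genes were called with 6 libraries (3552 genes in all) and with 5 (5185 in all, 1 residual degree of freedom). With the block on all libraries 3 genes were called in the naive and 14 in the ID8 genotype comparison, Tk1 in the Tim4KO challenge turned to 0.14, and no MCM call changed. The 6 genes together had 1230 or more counts in each library. Single genes had fewer, the lowest being 80 counts of Mcm2 and 99 of Mcm5 in Tim4KO naive 2.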
